A study of Homo sapiens with 8 samples.

Results

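The genes described here are 10 human neuropeptide precursor genes, VIP, CARTPT, NPY, ADCYAP1, GAL, TAC1, PENK, NTS, CALCA and GRP, of 58233 genes in the deposited table. They were listed by name and chosen by their levels in buds and bulks, with that difference already known, so their levels in the 2 groups are given as a description and were not tested. Of the 10, 8 passed the expression filter that 16641 genes passed, and TAC1 and GRP did not.

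The human embryonic stem cell line HUES8 had been differentiated stepwise in suspension flasks towards pancreatic islet cells and sampled at stage 5. Outgrowths called buds were shaken loose from the spheroids and separated from the remaining bulks by filtering. The 5 bulk libraries came from flasks 252, 261, 264, 270 and 274 and the 3 bud libraries from flasks 264, 270 and 274. All 8 libraries therefore share 1 cell line and 1 stage, no genotype or agent set the groups apart in the labels, and the bulks are what was left of spheroids, not a purified cell type.

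Library totals ran from 6083943 to 12508029 counts. CPM (counts-per-million) values use library sizes adjusted by the TMM method. All 9 endocrine markers were detected in every library, and 5 rose in buds, led by SST (log2 fold 2.62 ± 0.40 SE), CHGB (2.37 ± 0.37) and ISL1 (2.29 ± 0.34). INSM1 (0.41 ± 0.38), NEUROD1 (0.11 ± 0.42), INS (0.69 ± 0.51) and GCG (-0.47 ± 0.51) did not pass the test. Of 5 epithelium markers 4 fell, most of all PDX1 (-2.18 ± 0.22), SOX9 (-2.04 ± 0.24) and CDH1 (-1.45 ± 0.22). EPCAM (-0.20 ± 0.13) did not pass the test, and its groups overlapped. Over all genes tested 23.4% were called higher in buds and 23.8% lower. These calls and all later ones come from edgeR's quasi-likelihood test with a Benjamini-Hochberg adjusted p below 0.05 over all genes tested. Bulks therefore held endocrine transcripts too, and the bulk of flask 264 had the lowest level of all 9 endocrine markers among bulks. Counts from whole tissue pieces cannot tell fewer cells of a type apart from less RNA per cell.

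Neuropeptides are made as long precursors that enter the secretory granule, where proteases cut them at basic residues, a carboxypeptidase trims the ends and, for many peptides, an enzyme amidates the last residue. The released peptides act on G protein-coupled receptors. VIP (vasoactive intestinal peptide) and the related PACAP peptide from ADCYAP1 signal mainly through cyclic AMP, stimulate hormone release in the pancreas and are well known from the nerves of the gut and of islets. Transcription of several precursor genes responds to cyclic AMP through CREB, a factor that binds the sequence TGACGTCA, called the CRE, or its core TGACG.

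The sequences before the start sites of VIP, CARTPT and NPY are shown because the first pair had the largest folds among the members and NPY had overlapping groups. They cover the 250 bases before the RefSeq start (GRCh38.p14), at chr6:152750547-152750796, chr5:71719025-71719274 and chr7:24283940-24284189, all on the plus strand. Capitals mark TGACG on either strand, including where it forms the full CRE.
VIP: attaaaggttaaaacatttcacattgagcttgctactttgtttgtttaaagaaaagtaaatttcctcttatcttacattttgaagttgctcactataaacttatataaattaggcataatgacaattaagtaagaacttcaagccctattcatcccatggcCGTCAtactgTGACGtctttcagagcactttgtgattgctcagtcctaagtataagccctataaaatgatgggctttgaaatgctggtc
CARTPT: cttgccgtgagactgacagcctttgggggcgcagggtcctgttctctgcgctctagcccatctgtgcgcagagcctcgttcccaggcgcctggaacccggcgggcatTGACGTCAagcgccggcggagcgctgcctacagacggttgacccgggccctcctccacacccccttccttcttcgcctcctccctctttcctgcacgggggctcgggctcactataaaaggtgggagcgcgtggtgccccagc
NPY: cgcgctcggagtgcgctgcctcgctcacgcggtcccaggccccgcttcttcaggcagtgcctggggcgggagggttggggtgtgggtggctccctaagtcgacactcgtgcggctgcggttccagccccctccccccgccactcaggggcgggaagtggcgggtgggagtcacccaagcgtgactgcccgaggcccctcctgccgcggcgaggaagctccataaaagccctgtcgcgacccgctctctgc

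CARTPT held 1 full CRE, starting 143 bases before the start. VIP held 2 copies of the core, starting 89 and 79 bases before the start and lying on opposite strands. NPY held none. Of the 10 members 8 had an entry in the promoter table, 7 of them had at least 1 core in these windows (NPY had none, and ADCYAP1 had one before the second of its 2 listed starts), and CARTPT alone of the 8 had the full CRE. Over all 35116 promoters of that table, 1.65% held the full CRE and 21.2% the core within the same 250 bases. A match in the letters does not show that a factor binds there.

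VIP (chromosome 6, 152750797 to 152759765, GRCh38) was near the limit of detection in bulks and clearly detected in every bud. It stood at 0.132, 0.398, 0, 0.0916 and 0.213 CPM in the bulks of flasks 252, 261, 264, 270 and 274, from 7 counts in all. The buds of flasks 264, 270 and 274 had 19.7, 11.1 and 31.8 CPM, from 664 counts. Every bud was thus far above every bulk, and the fitted log2 fold of buds over bulks was 6.84 ± 0.50 (SE). Because single bulk counts set the denominator, the fold inside a flask is known only roughly. The bud of flask 274 was 149-fold above its bulk with a 95% counting interval of 40.9 to 1234, and that of flask 270 was 121-fold above its bulk (21.3 to 4825). In flask 264 the bulk had no VIP count, and against a floor of 3 counts the bud was at least 39.8-fold higher.

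CARTPT, the precursor of the CART peptides of the brain, gut nerves and islet cells (chromosome 5, 71719275 to 71721048), had the second largest fold of the 8 members fitted. Its bulks had 0.264, 0.133, 0.494, 0.641 and 0.534 CPM in the same flask order and its buds 14.6, 15.5 and 24.5 CPM. The groups lay far apart and the buds differed little among themselves, the highest being 1.68 times the lowest. The log2 fold was 5.36 ± 0.35 (SE), and the ratios inside flasks 264, 270 and 274 were 29.5, 24.1 and 45.9.

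ADCYAP1, the PACAP precursor gene (chromosome 18, 904871 to 912172), was present in bulks at a low and even level and several times higher in buds. The 5 bulks had 3.70, 3.59, 5.11, 5.59 and 5.23 CPM, and the 3 buds 44, 26.6 and 22.9 CPM. No bud came near the bulk range, and the log2 fold was 2.73 ± 0.24 (SE). An antisense long non-coding RNA that shares exon bases with ADCYAP1, ENSG00000265179, had 299 counts over the 8 libraries, against 196 counts of ADCYAP1 in bulks and 904 in buds. The deposited ADCYAP1 values were not whole in 7 libraries. Whether counting used strand is not given in the sources used here, so reads of this pair cannot be told apart with certainty.

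CALCA encodes calcitonin and, by alternative splicing, the sensory neuropeptide CGRP (chromosome 11, 14966622 to 14972354), and gene-level counts do not separate these products. Bulks had 0.264, 1.86, 1.15, 3.39 and 0.961 CPM and buds 23.5, 8 and 10.7 CPM. All buds were above all bulks, by the smallest margin in flask 270, where the bulk was the highest bulk and the ratio was 2.36 (counting interval 1.59 to 3.57). The log2 fold was 3.12 ± 0.54 (SE), and 3.71 without the bulk of flask 270. The related gene next to it, CALCB, which encodes a second CGRP and is not a member, is described below, and the deposited CALCA values were whole numbers in all 8 libraries.

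NTS, the neurotensin precursor gene (chromosome 12, 85874295 to 85882992), had the highest mean level per kilobase of exon among the members in both groups, although GAL was above it in the bulk of flask 261 and the bud of flask 264. Its bulks had 39.5, 11.8, 43.0, 25.1 and 38.4 CPM, and its buds 63.4, 110 and 225 CPM. Buds lay above bulks, yet they differed 3.55-fold among themselves, and the bud of flask 264 was 1.47-fold above its own bulk (1.26 to 1.72) while those of flasks 270 and 274 were 4.4-fold and 5.86-fold above theirs. The log2 fold was 2.08 ± 0.42 (SE), and 1.47 without the bud of flask 274.

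GAL encodes galanin, a peptide of sympathetic nerves in the islet that lowers insulin release in several species (chromosome 11, 68683779 to 68691175). Its bulks had 10.2, 21.8, 6.92, 13.1 and 6.62 CPM and its buds 96.1, 16.5 and 13.3 CPM. The bud of flask 264 was far above all other libraries, and the other buds lay inside the bulk range. Each bud was above the bulk of its own flask, by 13.9-fold (10.2 to 19.4), 1.26-fold (1 to 1.58) and 2.01-fold (1.5 to 2.74) in flasks 264, 270 and 274. The log2 fold of 1.82 ± 0.61 (SE) became 0.34 without that bud.

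PENK encodes the enkephalin precursor. Its bulks had 0.925, 1.33, 4.28, 1.1 and 0.640 CPM, and its buds 6.47, 2.73 and 3.21 CPM. Flask 264 was the highest in each group, and its bulk was above the buds of flasks 270 and 274, so the groups overlapped. Each bud was nevertheless above the bulk of its own flask, by 1.51-fold (0.919 to 2.54), 2.48-fold and 5.01-fold in flasks 264, 270 and 274. The log2 fold was 1.36 ± 0.55 (SE), and 2.02 without the bulk of flask 264.

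NPY, the neuropeptide Y precursor gene (chromosome 7, 24284188 to 24291862), was the fitted member with the smallest difference between the groups. Bulks had 3.17, 6.77, 1.32, 3.75 and 5.23 CPM and buds 3.51, 3.27 and 3.93 CPM. The buds lay inside the bulk range and were the closest together of the 8 members fitted, the highest being 1.2 times the lowest. In flask 264 the NPY ratio of bud to bulk was 2.66 (counting interval 1.17 to 6.8). In flasks 270 and 274 it was 0.872 (0.542 to 1.4) and 0.752 (0.496 to 1.14). The log2 fold was -0.19 ± 0.41 (SE), and it ranged from -0.40 to 0.12 over the alternative settings.

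TAC1, which encodes substance P and neurokinin A, and GRP, which encodes gastrin-releasing peptide, were scarce. TAC1 had 0, 1, 0, 0 and 5 counts in the bulks and 10, 22 and 10 counts in the buds, which put every bud above every bulk (0.803 to 2 against 0 to 0.534 CPM). In flask 274 the TAC1 ratio of bud to bulk was 1.5, with a counting interval of 0.468 to 5.61. Against a floor of 3 counts, the TAC1 level was at least 2.73-fold higher in the bud of flask 264 and 7.28-fold in that of flask 270. GRP had 0, 2, 0, 3 and 2 counts in bulks and 0, 2 and 1 in buds, too few to compare.

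**Figure D1:**
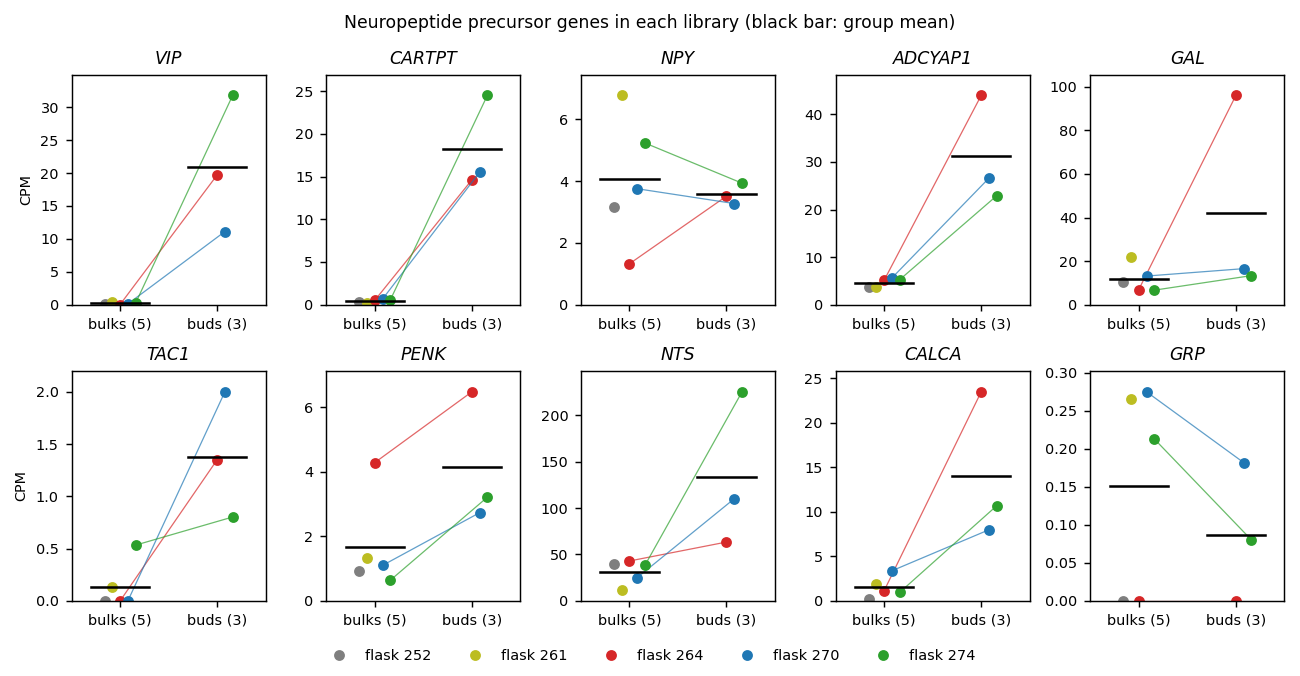
CPM (vertical axes from 0, a scale for each gene) of the 10 neuropeptide precursor genes in 5 bulk and 3 bud libraries, with flasks in colour, thin lines joining a bulk and the bud of its flask, and black bars at the group means. VIP, CARTPT, ADCYAP1, TAC1, NTS and CALCA have every bud above every bulk; in GAL only the bud of flask 264 is far above the bulks, and NPY buds lie inside the bulk range.

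In all, 6 of the 10 members had every bud above every bulk (VIP, CARTPT, ADCYAP1, TAC1, NTS and CALCA) and none had every bud below. Among all genes that passed the filter 23.5% had every bud above every bulk, but TAC1, counted among the 6, did not pass it. Since the members were chosen with this contrast known, nothing is read from their share. All 15 alternative settings kept the sign of the log2 fold for the other 7 members fitted, whereas that of NPY changed sign.

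Summed over the 10 genes, the level was 56.0 ± 5.54 CPM in bulks (SD, n = 5) and 268 ± 70.2 CPM in buds (SD, n = 3), with ranges of 48.1 to 62.3 and 196 to 336 CPM. NTS and GAL together made up 69.9 to 85.5% of the sum in bulks and 58.5 to 70.9% in buds. VIP made up 0 to 0.829% of the sum in bulks and 5.65 to 9.45% in buds, and CARTPT 0.276 to 1.21% and 5.34 to 7.88%. Without NTS the sum was 24.5 ± 7.59 CPM in bulks and 135 ± 65.1 CPM in buds.

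**Figure D2:**
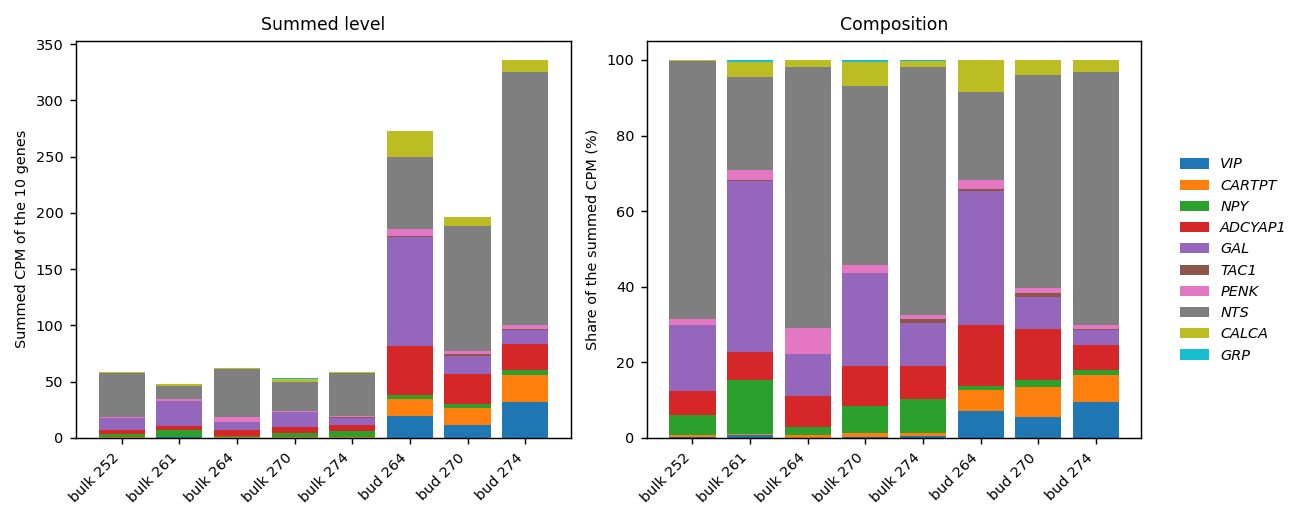
Left, summed CPM of the 10 genes in each library; right, each gene's share of that sum in percent. Bulks stand between 48.1 and 62.3 CPM and buds between 196 and 336 CPM, and NTS is the largest share in every library except the bulk of flask 261 and the bud of flask 264, where GAL is.

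Levels of different genes were compared per kilobase of merged exons. On that scale the mean order in buds was NTS (85.5 ± 53.6 CPM per kilobase, SD, n = 3), GAL (32.3 ± 36.1), CARTPT (16.5 ± 4.97), VIP (13.2 ± 6.56), ADCYAP1 (8.04 ± 2.90), CALCA (6.46 ± 3.80), NPY (4 ± 0.375), PENK (1.22 ± 0.600), TAC1 (0.808 ± 0.350) and GRP (0.101 ± 0.106). From NTS down to NPY, neighbours in this order differed by less than the larger of their SDs, so their order is uncertain, while PENK stood below NPY and GRP below TAC1 by more than that. In bulks the order began with NTS (20.3 ± 8.34 CPM per kilobase, SD, n = 5), GAL (9.01 ± 4.78) and NPY (4.54 ± 2.32), with VIP at 0.105 ± 0.0949. Among all tested genes, the mean level of VIP per kilobase stood at the 1.47 percentile in bulks and the 80.7 percentile in buds, that of CARTPT at 7.74 and 84.9, and that of NTS at 88.5 and 98.4. VIP and CARTPT, with 7 and 18 counts over all bulks, passed the expression filter only through their bud counts. Their low percentiles in bulks therefore follow in part from how they entered the tested genes.

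The buds of the 3 flasks did not share 1 order over the members. The bud of flask 264 had the highest level of GAL, ADCYAP1, CALCA and PENK, and the bud of flask 274 that of VIP, CARTPT, NTS and NPY. TAC1 was highest in the bud of flask 270. All 9 endocrine markers were also highest in the bud of flask 264, whereas 12 of 13 neuron markers, all but RBFOX3, were lowest in it. What part this has in the order of the members was not tested. Among bulks, that of flask 264 had the lowest NPY and the highest NTS and PENK level.

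By root mean square difference between log2 profiles over the 8 libraries, centred on the mean of the group means, the genes nearest to VIP were CDH12P2 (1.05), the homeobox gene HOXB5 (1.06), FGD5 (1.07), ADGRF5 (1.12) and the homeobox gene IRX4 (1.21). The mean of HOXB5 was 2.63 CPM over bulks and 128 CPM over buds. CDH12P2 is a pseudogene with no count in any bulk, so its bulk values come only from the 0.5 counts added. These profiles include the fold of buds over bulks, by which the members were chosen, so a like fold brings genes near. In the buds of flasks 264, 270 and 274 VIP had 19.7, 11.1 and 31.8 CPM. HOXB5 had 57.7, 195 and 132 CPM there and CDH12P2 8.49, 5.82 and 2.65 CPM. Of the genes nearest to VIP, IRX4 alone was also lowest in bud 270 and highest in bud 274. The genes nearest to CARTPT were closer, with PRDM14 at 0.43, RPH3A at 0.53, PDZRN4 at 0.54, FAM163A at 0.58 and the incretin receptor gene GLP1R at 0.61.

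The receptors of these peptides moved in both directions. Of 26 receptor genes and subunits listed, 14 passed the filter, 8 rose, 2 fell and 4 did not pass the test by edgeR. Over all genes tested, 23.4% were called higher and 23.8% lower, and the median log2 fold was 0.96 for these receptors and -0.02 for all genes. Under the fit with flask as a block 5 rose and the same number, 2, fell.

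ADCYAP1R1, the receptor selective for PACAP, had the largest rise. Its bulks had 0.397, 0.797, 0.824, 2.38 and 2.13 CPM in flask order and its buds 8.90, 18.0 and 13.6 CPM, which is 3.29 ± 0.44 (SE) on the log2 scale (edgeR adjusted p = 0.000179). Ligand and receptor of the PACAP pair were thus both above all bulks in every bud. VIPR1, a receptor for VIP and PACAP alike, averaged 3.41 ± 0.704 CPM over the 5 bulks and 7.83 ± 2.07 CPM over the 3 buds (SD), a rise of 1.18 ± 0.26 on the log2 scale (edgeR adjusted p = 0.00362). VIPR2, the other receptor of this pair, did not pass the filter, its highest library having 11 counts.

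Among the other receptors that rose were TACR3, for tachykinins (2.11 ± 0.45, edgeR adjusted p = 0.00320), and GRPR, for gastrin-releasing peptide (1.63 ± 0.35, 0.00335), although its ligand gene GRP had at most 3 counts in any library. The galanin receptor gene GALR1 rose by 1.06 ± 0.28 (edgeR adjusted p = 0.00965; 0.0558 with only the 3 flasks that gave both samples). OPRD1, a receptor for enkephalins, rose by 1.62 ± 0.42 (edgeR adjusted p = 0.00888, and 0.0691 with flask as a block). Its bud of flask 264 stood at 13.8 CPM against 3.55 and 4.25 CPM in the other buds. RAMP2, a partner of calcitonin-family receptors, rose by 1.36 ± 0.35 (edgeR adjusted p = 0.00886; 0.0529 under the block). RAMP2 shares exon bases with an antisense RNA of 268 counts, and GRPR with one of 137 counts. TACR1, the substance P receptor gene, was at 0.86 ± 0.31 (edgeR adjusted p = 0.0436). Its call was lost under the block (0.0605), with upper-quartile scaling, and when the bulk of flask 261, 264 or 274 or any 1 bud was left out, with the adjusted p reaching 0.131 without the bud of flask 264.

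The 2 receptor genes that fell, NPY1R and NPY4R, both belong to the NPY family, of which 4 were listed. NPY1R had 36.1, 42.8, 13.3, 32.3 and 36.0 CPM in bulks and 11.7, 11.1 and 9.55 CPM in buds, a log2 fold of -1.58 ± 0.32 (edgeR adjusted p = 0.00211). Every bud was below every bulk, and the bulk of flask 264 was the lowest bulk. NPY4R, the receptor that prefers pancreatic polypeptide, fell from 2.75 ± 0.660 to 0.348 ± 0.0955 CPM, a log2 fold of -2.91 ± 0.39 (edgeR adjusted p = 0.000175). NPY5R, whose exons overlap those of NPY1R on the opposite strand, had 0.09 ± 0.42 (edgeR adjusted p = 0.867). NPY2R, the other of the 4, was below the filter with 0, 0, 0, 1 and 2 counts in bulks and 10, 8 and 14 counts in buds. The kappa opioid receptor gene OPRK1 (0.06 ± 0.34, edgeR adjusted p = 0.900), the neurotensin receptor gene SORT1 (-0.23 ± 0.10, 0.0810) and RAMP1 (-1.07 ± 0.76, 0.271) did not pass. NTSR1, another neurotensin receptor gene, was below the filter with 2, 2, 0, 2 and 2 counts in bulks and 14, 2 and 2 counts in buds. The calcitonin-family receptor genes CALCRL and CALCR were also below it, with at most 6 counts in any library. No count was seen in any library for NTSR2 and NMBR.

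**Figure D3:**
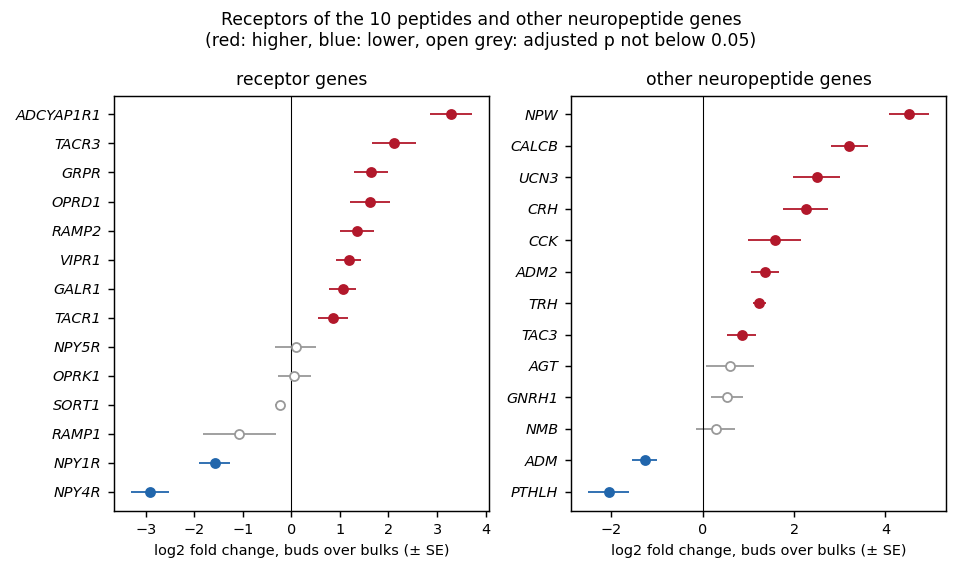
Log2 fold change of buds (n = 3) over bulks (n = 5) with its SE for 14 receptor genes of the 10 peptides (left) and 13 other neuropeptide genes (right) that passed the expression filter; red and blue mark adjusted p below 0.05. ADCYAP1R1 at 3.29 and NPW at 4.52 are highest, NPY4R at -2.91 and PTHLH at -2.06 lowest.

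Most genes listed for turning such precursors into peptides rose, among them those of an inhibitor and a helper. Of 12 processing genes, all tested, 10 rose and 1 fell, where 23.4% of all genes tested were called higher and 23.8% lower. Their median log2 fold was 1.11. Under the flask block 7 rose and none fell. Without the bud of flask 264, 6 rose, and the enzyme genes PCSK2, PAM, QPCT and PCSK6 lost their calls. PCSK1N, an inhibitor of the convertase PCSK1, rose by 3.25 ± 0.32 (edgeR adjusted p = 3.58e-05) and PCSK1 itself by 2.34 ± 0.40 (0.000822). SCG5, a helper of PCSK2, rose by 1.72 ± 0.46 (edgeR adjusted p = 0.0107, with 0.0929 in the blocked fit and 0.0711 in the 3 flasks alone). The carboxypeptidase gene CPE had 1.57 ± 0.27 (edgeR adjusted p = 0.000925). PAM, the amidating enzyme whose action VIP, PACAP, NPY and CGRP need, was close to the threshold at 0.65 ± 0.25 (edgeR adjusted p = 0.0496) (means 477 ± 138 and 750 ± 115 CPM in 5 bulks and 3 buds, SD), and lost its call in 9 of the 15 alternative settings. CPD, a second carboxypeptidase, was the gene that fell (-0.55 ± 0.20, edgeR adjusted p = 0.0435). It lost its call in 8 alternative settings, among them the flask block (0.156).

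Of 8 tested genes of peptidases that break down released peptides, 1 rose and 2 fell, where 23.4% of all genes tested were called higher and 23.8% lower, so the falls were close to the share over all genes. ACE, the angiotensin-converting enzyme, rose by 1.61 ± 0.29 (edgeR adjusted p = 0.00120). NLN (neurolysin), a peptidase that cuts neurotensin, fell by 0.41 ± 0.12 on the log2 scale (edgeR adjusted p = 0.0199, and 0.0586 in the blocked fit), and ECE1 -0.56 ± 0.21 (0.0456), a call lost in 10 of the 15 alternative settings, with 0.175 without the bud of flask 274. The adjusted p of NLN was 0.101 and 0.0612 without the buds of flasks 270 and 274.

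Other neuropeptide genes, 42 listed and 13 past the filter, included 8 that rose and 2 that fell. Over all genes tested 23.4% were called higher and 23.8% lower. The median log2 fold over those 13 was 1.24. Under the block 5 rose, with TAC3, CCK and CRH losing their calls (edgeR adjusted p = 0.172, 0.117 and 0.0616). TAC3 and CCK also lost theirs with upper-quartile scaling, in DESeq2 and in the 3 flasks alone. NPW, the neuropeptide W precursor, had 0.264, 0.797, 0.989, 0.458 and 0.213 CPM in bulks and 19.0, 8.73 and 8.91 CPM in buds, a log2 fold of 4.52 ± 0.44 (edgeR adjusted p = 3.18e-05). CALCB rose by 3.21 ± 0.40 (edgeR adjusted p = 0.000112), beside a fitted value of 3.12 ± 0.54 for its neighbour CALCA. UCN3, urocortin 3, a peptide of beta and alpha cells in humans, rose by 2.49 ± 0.52 (edgeR adjusted p = 0.00265). The falls were those of PTHLH, for parathyroid hormone-related protein (-2.06 ± 0.45, edgeR adjusted p = 0.00340), and ADM, for adrenomedullin (-1.27 ± 0.27, 0.00305). No count was seen in any library for 8 of the 42, which include the hypothalamic genes OXT, HCRT and PMCH.

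Of 15 genes tied to cyclic AMP and CREB signalling, all tested, 5 rose and 4 fell, which is not far from the 23.4% and 23.8% of all genes called higher and lower, and the median log2 fold was -0.09. Under the flask block 5 rose and 3 fell, EP300 no longer passing (edgeR adjusted p = 0.059). The 15 include REST, which represses neuronal genes in non-neuronal cells, and its partner RCOR1. PRKAR2B, a regulatory subunit of protein kinase A, rose by 2.38 ± 0.26 (edgeR adjusted p = 5.6e-05). PRKACA, a catalytic subunit, and the CREB coactivator CRTC1 rose by 0.63 ± 0.12 and 0.63 ± 0.13 (edgeR adjusted p = 0.00196 and 0.00233), while CREB1 itself had -0.10 ± 0.22 (0.729). REST had 84.5, 59.6, 68.9, 55.9 and 73.5 CPM in bulks and 14.8, 7.18 and 4.98 CPM in buds, a log2 fold of -2.96 ± 0.32 (edgeR adjusted p = 5.48e-05). Every bud was well below every bulk. SIK1, a kinase that restrains CRTC coactivators, fell by 1.18 ± 0.30 on the log2 scale (edgeR adjusted p = 0.00813), and the acetyltransferase gene CREBBP by 0.52 ± 0.12 (edgeR adjusted p = 0.00466).

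Neuron markers were higher in the buds. All 13 neuron markers rose, also under the block and in every other alternative setting. Over all genes tested 23.4% were called higher and 23.8% lower. The summed level of the 13 was 782 to 1370 CPM in bulks and 3773 to 5545 CPM in buds. SYT1, a calcium sensor of vesicle release, rose by 4.30 ± 0.41 (edgeR adjusted p = 2.82e-05), GAP43 by 3.99 ± 0.34 and ELAVL3 by 3.69 ± 0.39, and none of the 13 was at 0 in any library. Of 15 markers of neural crest, glia, and autonomic and enteric neurons, 9 passed the filter, 6 rose and none fell, with a summed level of 38.7 to 100 CPM in bulks and 529 to 592 CPM in buds. SLC18A3, the vesicular acetylcholine transporter (4.34 ± 0.42, edgeR adjusted p = 3.18e-05), TH, the first enzyme of catecholamine synthesis (3.84 ± 0.26), and PRPH, a filament of peripheral neurons (3.51 ± 0.62), had the largest rises of these. CHAT, a listed gene that overlaps SLC18A3 on the same strand, was below the filter. It had 1, 1, 0, 5 and 2 counts in bulks and 6, 12 and 4 counts in buds, and its groups overlapped in CPM. SOX10, which defines neural crest and glia, had no count in any bud and at most 1 in any bulk, and HAND2 and FOXD3 had at most 6. The glial gene S100B, also below the filter, had 11 counts over the 5 bulks (0 to 0.549 CPM) and 38 over the 3 buds (0.944 to 1.53 CPM), every bud being above every bulk. PHOX2A (-0.67 ± 0.43), DBH (0.36 ± 0.40) and NOS1 (0.61 ± 0.64) did not pass (edgeR adjusted p = 0.227, 0.491 and 0.465). Which cells carried these transcripts, and what part those cells have in the levels of the members, was not tested.

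**Figure D4:**
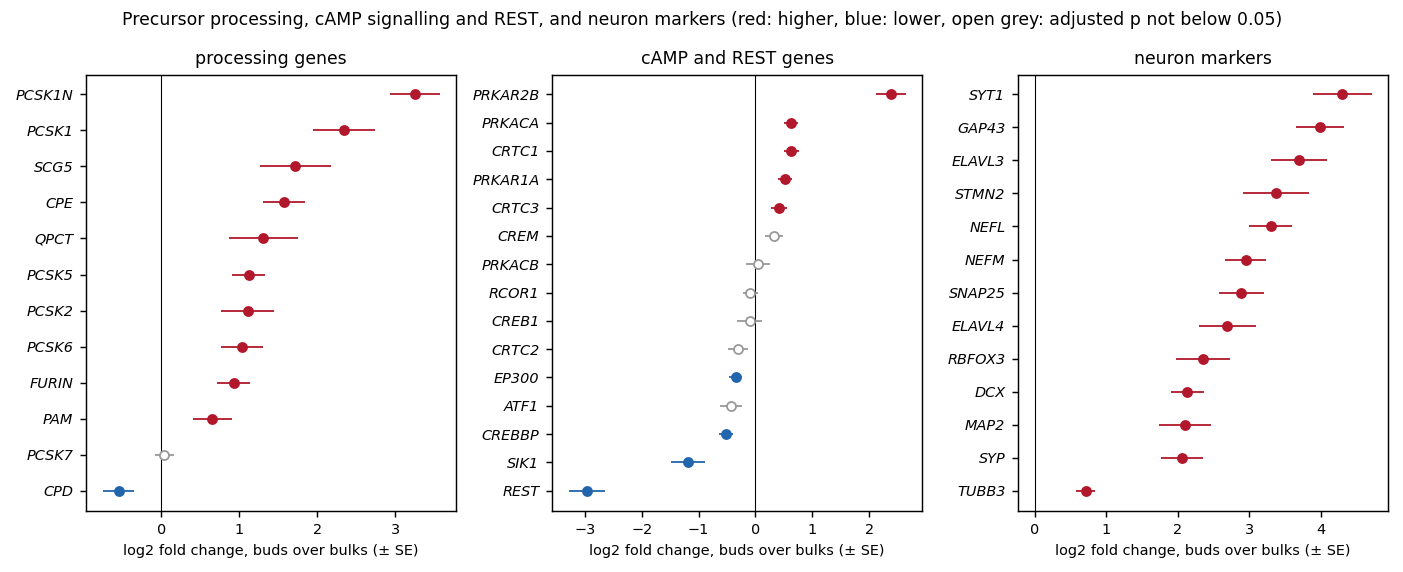
Log2 fold change of buds (n = 3) over bulks (n = 5) with its SE for 12 precursor processing genes, 15 genes of cyclic AMP signalling and REST, and 13 neuron markers; red and blue mark adjusted p below 0.05. All neuron markers lie above 0, REST is at -2.96, and PCSK1N at 3.25 is the highest processing gene.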

How the data were processed

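The deposited values are expected counts per Ensembl gene. The authors aligned paired-end reads to GRCh38 with STAR and quantified them with RSEM at default settings, per the labels' design text and per the submitters' processing notes. Neither tool's version, nor the annotation release, nor whether strand was used, is stated there. Symbols, positions and lengths came from GENCODE release 44, which matched 57392 of 58233 genes. Expected counts were rounded to whole numbers and fitted with edgeR 4.0.16 in R 4.3.3 (TMM, filter at minimum count 10 and total 15 by group, quasi-likelihood F test, Benjamini-Hochberg adjustment over all 16641 genes tested, threshold 0.05, no covariate). SE is the log2 fold divided by the root of F. The fit was also run on simulated counts. These had independent libraries, no flask effect and far fewer changed genes than were called here, so they do not check the fit under those conditions.

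Members and gene lists were chosen with earlier results of these data known. All members are named; in each other list up to 3 called genes at each end and all receptors past the filter are named by rule, others by choice after seeing values. Likeness used counts plus 0.5. Intervals (exact, 95%) and floors of 3 counts cover counting error only. Promoter sequences are RefSeq's (GRCh38.p14); the PENK and GAL promoters were not analysed here.

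Per the labels, flasks 264, 270 and 274 each gave a bud and a bulk library. Within these flasks the deviations from group means had correlations of 0.123, 0.134 and 0.295, so flask was taken to pair them. Of the 12 pairs from different flasks, 2 were also above 0.1, bud 264 with bulk 261 (0.134) and bud 274 with bulk 252 (0.194). Flask as a replicate block was an alternative. The main p-values treat libraries as independent and measure the spread between libraries of 1 cell line. No 2 libraries of a group matched within sampling noise (lowest chi-square per gene 9.4).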

Additional observations from a re-analysis of the deposited data

Results flagged for a closer look

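Levels over the 5 bulks were examined for 106 genes that are listed and past the filter. For 11 genes, 1 bulk was separated from the nearest other by more than 0.71 of the whole range. About 1 in 20 groups of normally distributed values show such a gap by chance, so several of 106 genes would at that rate. Levels of low-count genes need not be normally distributed and all genes share the same 5 bulks, so the rate holds only roughly here. Among the members this was PENK, at 4.28 CPM in the bulk of flask 264 against 0.64 to 1.33 CPM in the other bulks. In the same bulk PAM was low at 235 CPM (492 to 560 CPM in the others), while PCSK7 (63.4 against 48.7 to 51.7 CPM), NOS1 (2.47 against 0.213 to 0.641 CPM) and SOX9 (86.8 against 47.5 to 57.1 CPM) were high. The bulk of flask 270 stood apart for ECE1 (185 against 126 to 140 CPM), NLN (82.7 against 105 to 110 CPM) and RBFOX3 (3.48 against 0.989 to 1.39 CPM). In the bulk of flask 261 DPP4 was at 21 CPM against 5.27 to 6.96 CPM and UCN3 at 4.12 against 0.793 to 1.65 CPM. In the bulk of flask 274 PREP was at 43.1 CPM against 53.4 to 56.7 CPM. Groups of 3 buds were not examined in this way.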

How the results depend on the processing

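The alternatives were RLE, upper-quartile and unscaled library sizes, no expression filter, DESeq2 1.42.0, the flask block, the 3 flasks with both samples alone, and each library left out in turn. Under the flask as replicate block, 5 receptor genes rose in place of 8, 5 other neuropeptide genes in place of 8, and 0 processing and 1 breakdown gene fell in place of 1 and 2. With the 3 flasks alone, 6 processing genes rose in place of 10, 0 fell, and 0 breakdown genes fell. With RLE factors 0 processing genes and 1 breakdown gene fell, and 1 breakdown gene fell unscaled or with no filter. Leaving out 1 library gave 6 to 10 processing genes higher, 0 to 1 lower, and 0 to 2 breakdown genes lower. The cause was not tested. The summed level of the 10 members, a mean log2 difference of 2.23, ranged from 2.05 to 2.44. The log2 fold of VIP ranged from 6.39 to 7.38, of CARTPT from 4.97 to 5.61, of ADCYAP1 from 2.41 to 2.92, of CALCA from 2.55 to 3.71, of NTS from 1.47 to 2.41 and of PENK from 0.91 to 2.02. NTS reached its lowest value without the bud of flask 274 and PENK without that of flask 264. GAL was the member that moved by more than its spread, to 0.34 without the bud of flask 264. TAC1, GRP and VIP in bulks are limited by depth. Per longest transcript in place of merged exons, the bud level moved from 1.22 to 3.31 CPM per kilobase for PENK, from 0.808 to 1.3 for TAC1 and from 4 to 5.07 for NPY, and in bulks VIP went from rank 9 to 10 of the 10 members.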
